A study of Mus musculus with 12 samples.

Results

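The nuclear genes that encode the mitochondrial respiratory chain, its ATP synthase and the assembly factors named with them were followed in fetal mouse testes with and without Dmrt1. A gene was a member if its symbol in the platform annotation starts with Nduf, with Sdh and a letter from a to d, with Uqcr, with Cox4 to Cox8 or with Atp5, and if a probe set assigned to this gene alone measures it. Of the 18193 genes on the arrays, 94 were members: 42 of complex I, 8 of complex II, 8 of complex III, 19 of complex IV and 17 of complex V, the ATP synthase. Ndufa4 and Ndufa4l2 were counted with complex IV, where Ndufa4 is now placed. The study compared Dmrt1 knockout with wild-type testes on 12 Affymetrix arrays, 3 for each group. The groups were 129Sv knockout, 129Sv wild type, B6 knockout and B6 wild type testes, all labelled E15.5 for embryonic day, and no other allele or agent is named for any of them. The growth protocol instead gives P28 for the embryos, and the text of the series calls the loss of the gene conditional without naming a Cre line, while the sample labels say knockout. The labels do not say whether the arrays of a group came from separate animals, so the spread behind each p-value is that between these arrays and may be technical.

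Complexes I and II pass electrons from NADH and from succinate to ubiquinone, complex III hands them to cytochrome c, and complex IV, cytochrome c oxidase, passes them to oxygen. Complexes I, III and IV pump protons across the inner mitochondrial membrane, and complex V makes ATP as the protons return. The catalytic cores of complexes I, III and IV and the membrane part Fo of complex V depend in part on subunits encoded in mitochondrial DNA. Those subunits are no members here, whereas most others come from nuclear genes. Several nuclear subunits of complex IV exist as a widely expressed form and a form of a few tissues: Cox6b2, Cox7b2 and Cox8c are known from testis, Cox7a1, Cox6a2 and Cox8b from heart and skeletal muscle, and Cox4i2 from lung. The fetal testis holds germ cells, Sertoli cells that enclose them, and Leydig cells, whose mitochondria begin steroid synthesis. Dmrt1 is a DNA-binding transcription factor of germ cells and Sertoli cells.

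The deposited values are intensities, and log2 was taken of them here. Dmrt1, which checks the labels, measured 173, 145 and 181 in 129Sv knockout testes, against 1183, 924 and 1014 in 129Sv wild-type testes, and 86.4, 64.0 and 72.9 in B6 knockout testes, against 795, 1092 and 1066 in B6 wild-type testes. It was thus lower on all 6 knockout arrays, by 2.64 ± 0.17 on the log2 scale in 129Sv (SE; limma adjusted p = 4.72e-07) and by 3.72 ± 0.17 in B6 (limma adjusted p = 1.97e-08). None of the germ cell, Sertoli cell and fetal Leydig cell markers that were tested had a mean under an intensity of 16. The Actb ratio, the signal of its 3′ probe set over that of its 5′ one, which rises with RNA degradation and with the labelling, was 6.3 on B6 knockout array 3, 5.24 on 129Sv knockout array 1 and 3.91 on 129Sv wild-type array 2, and lay between 1.99 and 2.79 on the others.

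Nearly all members were bright. On all 12 arrays 88 of the 94 reached an intensity of 16, below which the intensities carry little signal, and 80 reached 256, while the median of an array over all probe sets lay between 17.34 and 19.0. A gene was tested if it reached 16 on at least 3 arrays, and 92 members passed, with Ndufb4 at 4.16 to 5.47 and Cox8b at 5.81 to 8.21 below it. The members that averaged highest in their complexes were Ndufc1 (mean log2 level 13.05), Sdhd (11.9), Uqcrb (12.89), Cox6c (12.86) and Atp5o (12.92). Between arrays of one group the members varied about as much as other genes, with a median within-group SD of 0.191 on the log2 scale over the members and 0.209 over all tested genes. They varied together more, since the first component of the deviations from the group means held 51.2% of this variance over the members and 35.3% over all genes, so the members are not independent observations.

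In B6 most respiratory chain genes were slightly higher in knockout than in wild-type testes, and few of these differences passed the test. The log2 difference was above 0 for 72 of 92 members (78.3%) and for 54.0% of all tested genes, with a median of 0.14 over the members and 0.03 over all genes. The test, limma's moderated test adjusted over all 12726 tested genes at 0.05, called 5 members: Ndufa1, Ndufs3 and Atp5e rose, and Cox7b2 and Cox8c fell. Over all genes 7.9% passed in B6, 2.45% upward and 5.45% downward, and 5 of 92 is no larger a share than that. The knockout arrays lay entirely above the wild-type arrays for 24 members, against 14.3% of all genes, and entirely below for 4, against 13.4%. By class, the median difference was 0.22 for the core subunits of complex I, 0.18 for the accessory ones and 0.12 for the subunits of complex II. It was 0.20 for complex III, and 0.17 for both the F1 and the Fo part of complex V. The assembly factors of complex I had a median of 0.05. By the probe sets used, complex IV as a whole stood near all genes, with 10 members higher, 8 lower and a median of 0.04. Its widely expressed subunits had a median of 0.09 and its tissue isoforms one of -0.08, and Cox7a2l stood at -0.39. The mean log2 level of these 10 widely expressed subunits, relative to all 12 arrays, was 0.073, 0.064 and 0.326 on the B6 knockout arrays. On the B6 wild-type arrays it was -0.03, -0.003 and -0.01, without overlap. Cox7c, at 0.98, was the highest of these subunits.

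The shift was uneven between arrays. The mean log2 level of the 72 subunits that are neither isoforms nor assembly factors, relative to the mean of all 12 arrays, was 0.002, 0.092 and 0.24 on the B6 knockout arrays, against -0.161, 0.014 and -0.07 on the B6 wild-type arrays. On the 129Sv knockout arrays it was 0.089, -0.122 and 0.022, against -0.073, 0.069 and -0.103 on the 129Sv wild-type arrays. The groups overlapped in both strains, and the highest value belonged to B6 knockout array 3, the array of the highest Actb ratio, where complex I stood at 0.238, complex III at 0.316, complex IV at 0.326, complex V at 0.223 and complex II at -0.027. That array was the highest of its group for 58 of 92 members (63%), against 47.3% of all genes. Without it the B6 median was 0.10, with 70 of 91 members higher. The fetal Leydig cell markers moved the same way in B6, with all 7 higher in knockout testes and none passing the test (limma), a median difference of 0.29, and summed intensities of 26033 to 37522 in knockout against 24437 to 27932 in wild-type testes. In 129Sv all 7 were lower and none passed (limma), with a median of -0.24. Markers of macrophages and leukocytes (7 of 8 higher, median 0.27), of interstitial and peritubular cells (7 of 8, 0.12), of endothelial cells (6 of 8, 0.15) and of red blood cells (3 of 3, 0.46) were also mostly higher in B6 knockout testes, and none of them passed (limma). The germ cell markers moved the other way, with 4 of 7 lower past the test and none higher past it. Their summed intensities were 8472 to 12551 in B6 knockout against 15093 to 16726 in B6 wild-type testes. Sertoli cell markers, Dmrt1 among them, were lower for 6 of 10, 3 past the test, with sums of 14074 to 15303 against 17870 to 18939. Past the test (limma) upward were also 2 of 3 neuron and 1 of 3 mesonephros markers. Of 6 skeletal muscle markers 1 passed upward and 2 downward, and of 4 heart muscle markers none passed. In RNA of whole testes, fewer cells of a type and less RNA per cell cannot be told apart, and the part of these markers and of the array in the small shift of the members was not tested.

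**Figure D1:**
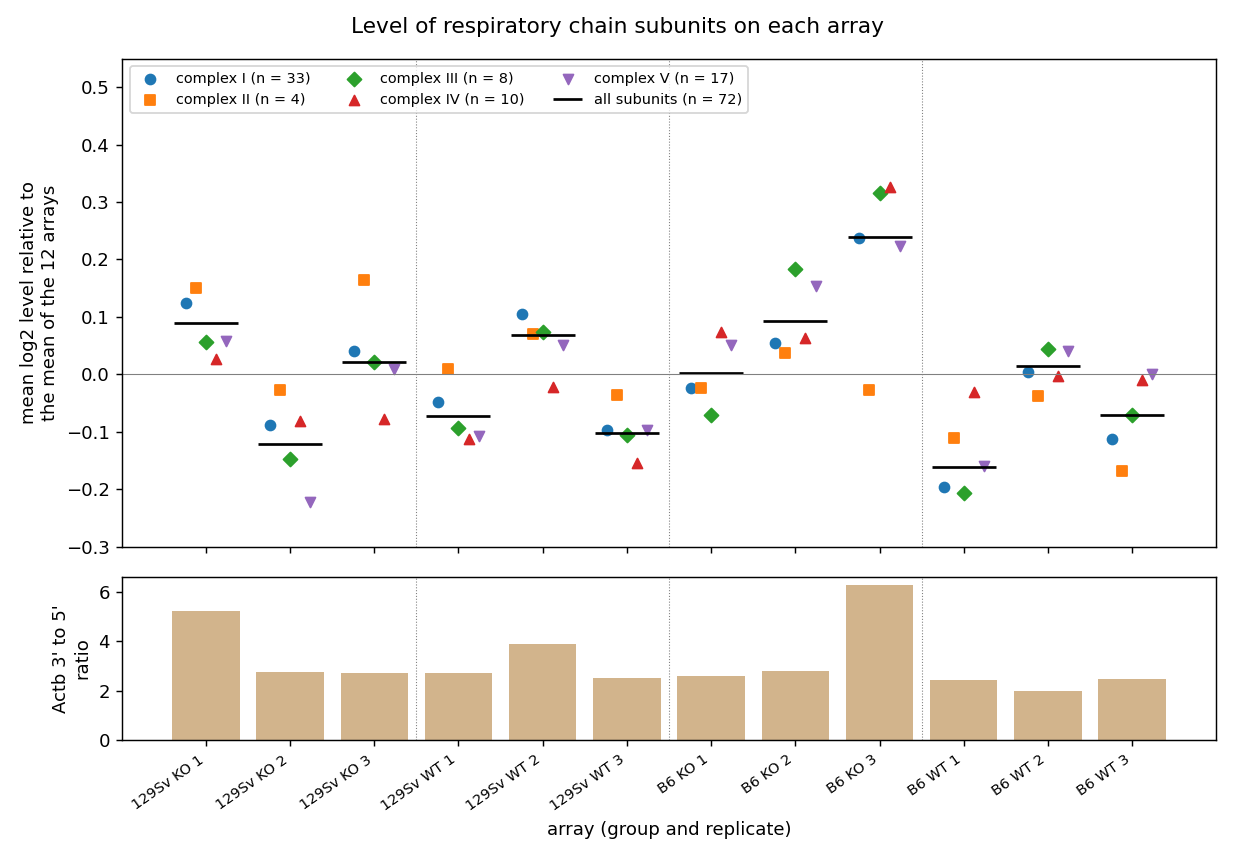
Mean level of the subunits of each complex on each array (top; log2 intensity relative to the mean of the 12 arrays; symbols are complexes, black lines the mean of all 72 subunits) above the Actb ratio (3′ over 5′ probe set) on the same arrays (bottom; bars start at 0). B6 knockout array 3 is highest for all subunits together (0.24) and for the Actb ratio (6.3), while complex II stays at -0.027 on it.

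In 129Sv the members lay more evenly around 0. The median log2 difference between knockout and wild-type testes was 0.04 over the members and -0.01 over all genes, and 53 of 92 members (57.6%) were higher, against 49.0% of all genes. By limma 2 members passed, Ndufaf6 upward and Cox7a1 downward, where 8.31% of all genes passed (4.07% upward, 4.24% downward). Groups without overlap were found for 6 members with knockout above wild type and for 3 below it, against 14.2% and 14.6% of all genes. By class the medians lay between -0.02 (isoforms of complex IV) and 0.12 (subunits of complex II and assembly factors of complex I), apart from Cox7a2l, a class of its own at -0.30. None of the 72 ordinary subunits passed in 129Sv, where 43 were higher and 29 lower. In B6, 60 of them were higher and 12 lower, with 3 past the test.

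**Figure D2:**
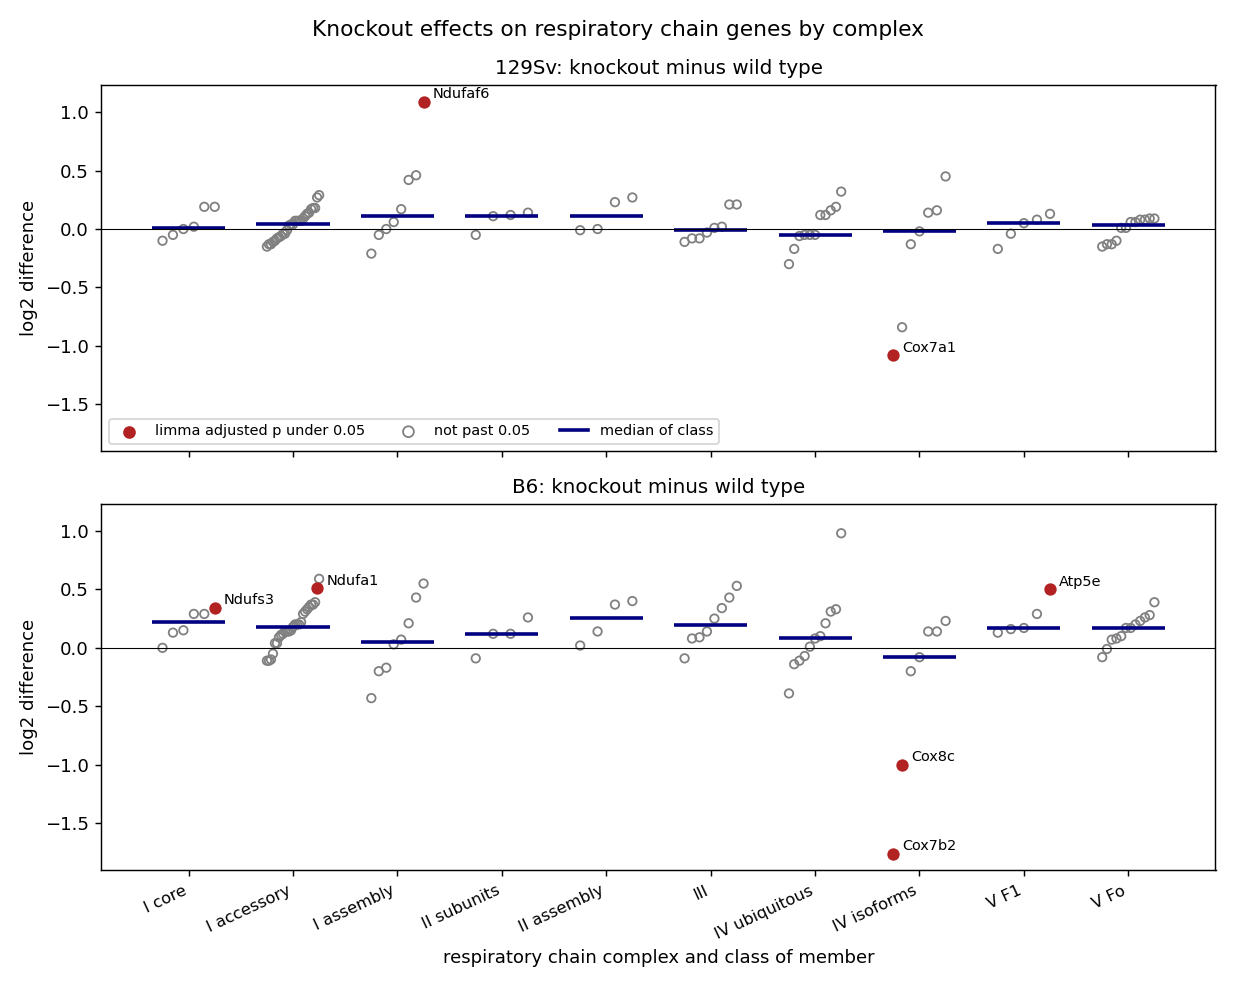
Log2 difference of each tested member between knockout and wild-type testes, by complex and class, in 129Sv and in B6. Points are genes, red points have a limma adjusted p under 0.05, and bars mark class medians, with Cox7a2l drawn among the widely expressed subunits of complex IV: in B6 the bars of complexes I, II, III and V stand above 0 (0.05 to 0.25), and that of the complex IV isoforms stands at -0.08.

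The difference between the strains in the knockout effect was itself tested. Its median over the members was -0.13 (129Sv effect minus B6 effect; -0.03 over all genes), with 23 members above 0 and 69 below. By limma none of the 92 members passed this test, against 1.31% of all genes (1.12% upward, 0.196% downward), and at an unadjusted p under 0.05 there were 2 upward and 8 downward. A p that misses the threshold does not show that the effects were alike in both strains. Of the members, Cox7b2 came nearest upward, at 1.91 ± 0.46 (limma adjusted p = 0.0541). It passed in 6 of 22 alternatives. Among these were the replicate number as a block (limma adjusted p = 0.0235) and the first number of the sample titles as a random block (limma adjusted p = 0.0402). In B6, knockout and wild-type array 1 share that title number, and so do knockout and wild-type array 2.

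**Figure D3:**
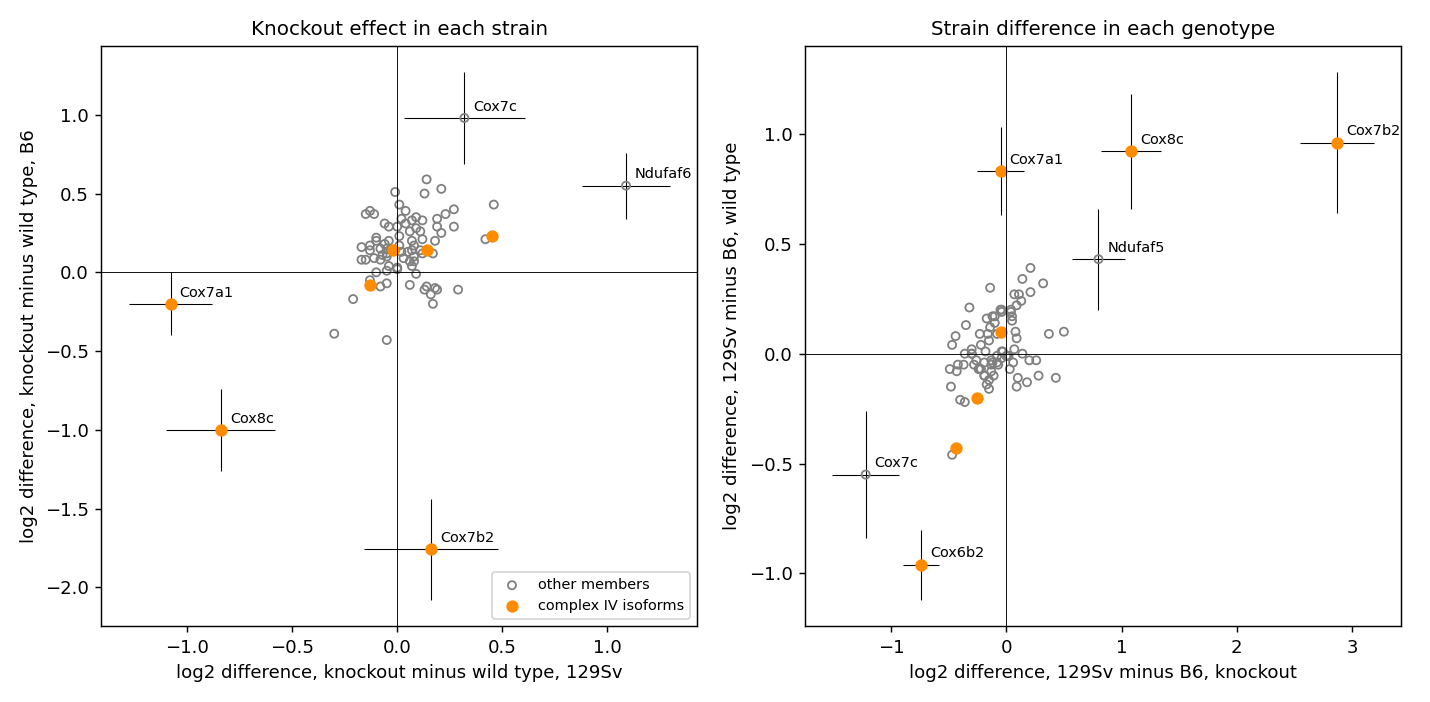
Left, the knockout effect of each member in 129Sv (x axis) and in B6 (y axis); right, the strain difference (129Sv minus B6) in knockout (x axis) and in wild-type testes (y axis), all on the log2 scale with standard errors as crosses. Tissue isoforms of complex IV are in orange: far from 0 in the left panel lie Cox7b2 (0.16 in 129Sv, -1.76 in B6) and Cox7a1 (-1.08 in 129Sv, -0.20 in B6) and, not an isoform, Ndufaf6 (1.09 in 129Sv, 0.55 in B6).

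Some tissue isoforms of cytochrome c oxidase were among the members that changed most, and others did not pass. Cox7b2, the testis paralogue of the small subunit Cox7b, measured 35.2, 42.5 and 89.2 in B6 knockout testes, against 106, 216 and 225 in B6 wild-type testes. All 3 knockout arrays were below all 3 wild-type arrays, and Cox7b2 was 3.38-fold lower in B6 knockout testes (log2 difference -1.76 ± 0.32, SE; limma adjusted p = 0.00338). In 129Sv it measured 339, 338 and 457 in knockout testes, against 308, 365 and 336 in wild-type testes. These groups overlapped, and the difference was 0.16 ± 0.32 (limma adjusted p = 0.847). Between the knockouts Cox7b2 was 7.32-fold higher in 129Sv than in B6 (2.87 ± 0.32, limma adjusted p = 1.73e-05), without overlap, and between the wild types the difference was 0.96 ± 0.32 (limma adjusted p = 0.0555). The strain difference of the knockout effect passed without B6 knockout array 3 (2.32, limma adjusted p = 0.00581) or without B6 wild-type array 1 (2.27, limma adjusted p = 0.0212). With any other single array left out it did not pass (limma adjusted p 0.068 to 0.166).

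Of 7 germ cell markers 4 fell in B6 knockout testes beside Cox7b2, Gtsf1 by 2.62, Dnd1 by 1.43, Taf7l by 1.31 and Mael by 0.96 on the log2 scale, each past the test by limma. The other 3 did not pass, with Ddx4 at -0.46, Dazl at -0.13 and Dppa3 at 0.30. Slc25a31, the ADP/ATP carrier known from germ cells, measured 1646, 1129 and 1277 in B6 knockout testes, against 2114, 1960 and 2322 in B6 wild-type testes, and fell by 0.67 ± 0.15 (limma adjusted p = 0.0133). In 129Sv 1 of the 7 germ cell markers passed by limma, Dppa3 upward (0.93), while the other 6 lay between -0.28 and 0.41, 3 of them below 0, with summed intensities of 18339 to 23713 in knockout and 19195 to 19877 in wild-type testes. The part of the germ cells in the change of Cox7b2 was not tested.

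Cox8c, the testis form of the subunit Cox8, was dim and lower in knockout testes of both strains. It reached 16 on 5 of 6 129Sv arrays and on 2 of 6 B6 arrays, so that it was tested mainly through 129Sv, and its fitted log2 differences include values below 16. It measured 16.4, 12.5 and 22.5 in 129Sv knockout testes, against 25.8, 37.1 and 27.4 in 129Sv wild-type testes, and 7.23, 7.03 and 9.5 in B6 knockout testes, against 12.3, 16.2 and 19.3 in B6 wild-type testes. The groups did not overlap in either strain. The log2 difference was -0.84 ± 0.26 in 129Sv (limma adjusted p = 0.0642) and -1.0 ± 0.26 in B6 (limma adjusted p = 0.0305), where both means lay below 16 and no fold is given. The average over the strains was -0.92 ± 0.18 (limma adjusted p = 0.00332; -0.41, limma adjusted p = 0.0433, with values below a log2 of 4 raised to 4). The B6 call was lost without B6 knockout array 1 or 2 (-0.94, -0.92) and without B6 wild-type array 2 or 3 (-0.97, -0.85). With the same floor the B6 difference was -0.10 (limma adjusted p = 0.777).

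Cox6b2, the testis form of the subunit Cox6b, differed between strains more than between genotypes. It measured 724, 830 and 713 in 129Sv knockout testes, against 557, 521 and 575 in 129Sv wild-type testes, and 1075, 1090 and 1700 in B6 knockout testes, against 978, 1237 and 1016 in B6 wild-type testes. All 129Sv arrays lay below all B6 arrays. Cox6b2 was 1.95-fold lower in 129Sv than in B6 among wild types (-0.96 ± 0.16, limma adjusted p = 0.00143) and 1.67-fold lower among knockouts (-0.74 ± 0.16, limma adjusted p = 0.0035). The knockout effect was 0.45 ± 0.16 in 129Sv, without overlap (limma adjusted p = 0.111), and 0.23 ± 0.16 in B6, with overlap (limma adjusted p = 0.396). Neither passed. Of the 3 testis forms, Cox7b2 and Cox8c were thus brighter in 129Sv and Cox6b2 dimmer in 129Sv than in B6 in both genotypes. The Cox7b2 difference between wild types did not pass, and Cox8c was tested mainly through 129Sv. With values below a log2 of 4 raised to 4, the Cox8c difference between knockouts was 0.17 and did not pass (limma adjusted p = 0.473).

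Cox7a1, the heart and skeletal muscle form of the subunit Cox7a, fell in 129Sv knockout testes. It measured 299, 194 and 245 in 129Sv knockout testes, against 436, 589 and 521 in 129Sv wild-type testes, and 257, 228 and 272 in B6 knockout testes, against 223, 342 and 315 in B6 wild-type testes. The 129Sv groups did not overlap and the B6 groups did. The gene was 2.11-fold lower in 129Sv knockout testes (-1.08 ± 0.20, limma adjusted p = 0.00274), with -0.20 ± 0.20 in B6 (limma adjusted p = 0.555), and the difference of these effects did not pass (-0.88 ± 0.28, limma adjusted p = 0.142). Among wild types Cox7a1 was 1.77-fold higher in 129Sv than in B6 (0.83 ± 0.20, limma adjusted p = 0.0114), which was lost without 129Sv wild-type array 2 (0.72) or B6 wild-type array 1 (0.64). Among knockouts the strains differed by -0.05 ± 0.20 (limma adjusted p = 0.857). Of the heart muscle markers, Myh7 fell by 2.30 (limma adjusted p = 0.0049) and Myh6 by 1.22 (limma adjusted p = 0.0469) in 129Sv knockout testes, while Tnni3 (0.12) and Myl7 (0.47) did not pass, and the summed intensity of the list was 702 to 983 in 129Sv knockout and 732 to 995 in 129Sv wild-type testes. Among skeletal muscle markers Tnnc2 fell by 1.46 and Tnni1 rose by 1.2 past the test, while Acta1 and Ckm stayed under 16 in all groups, with list sums of 240 to 299 in 129Sv knockout and 198 to 222 in 129Sv wild-type testes. Their part in the Cox7a1 result was not tested.

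**Figure D4:**
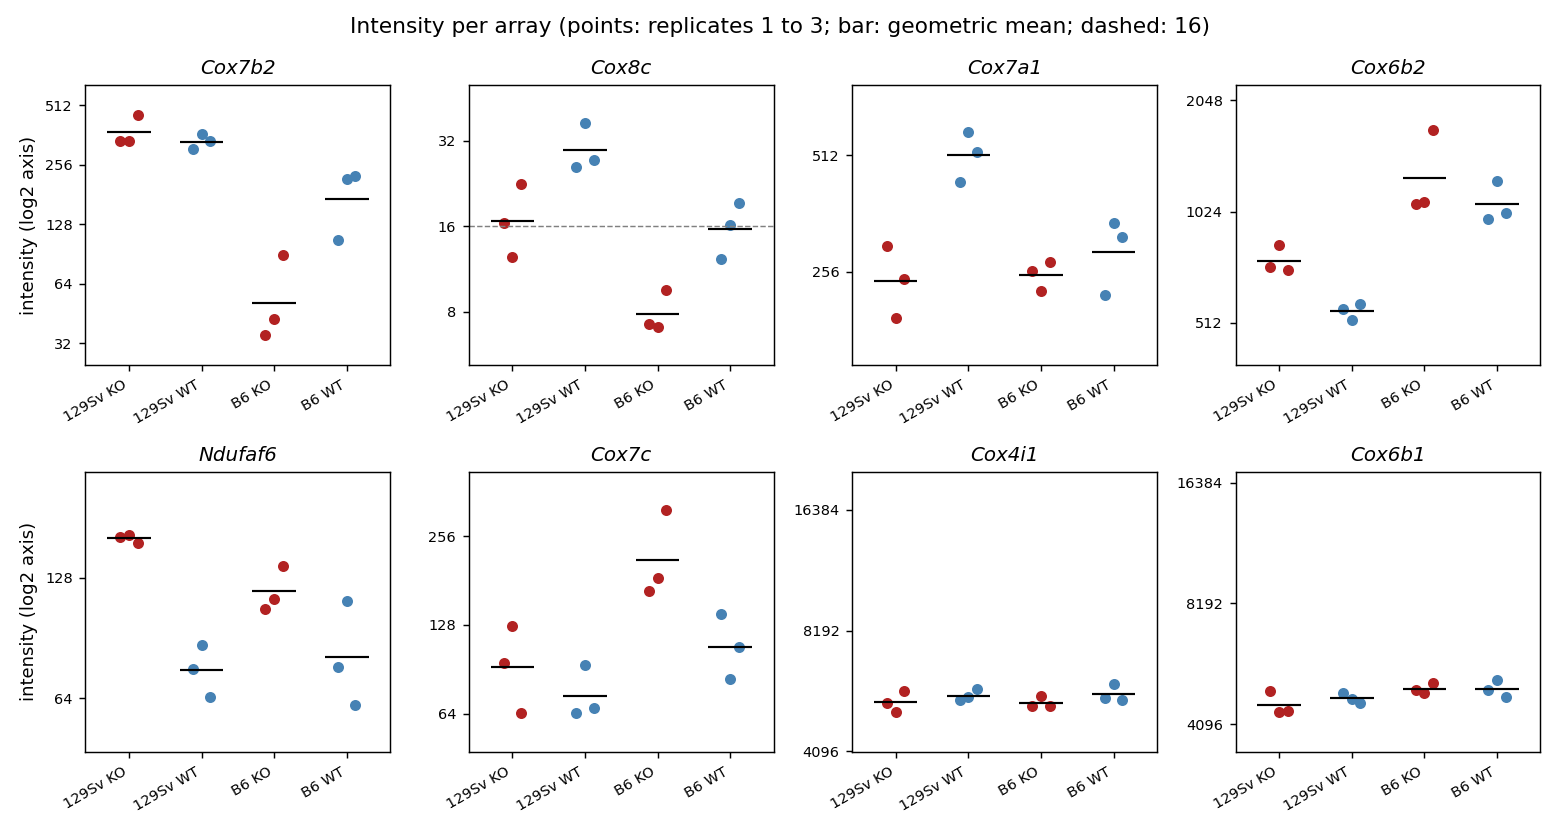
Intensity (log2 axis) of Cox7b2, Cox8c, Cox7a1, Cox6b2, Ndufaf6, Cox7c, Cox4i1 and Cox6b1 on each array of the 4 groups, with points for arrays, bars for geometric means and a dashed line at 16. Cox7b2 lies at 35.2 to 89.2 in B6 knockout testes and at 106 to 225 in B6 wild-type testes, whereas Cox4i1 stays between 5139 and 6021 on all arrays.

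The other tissue isoforms stayed dim. Cox4i2, the lung form, lay between 14.1 and 23.3 on all arrays, Cox6a2 between 10.2 and 22.3, and Ndufa4l2, the hypoxia-responsive relative of Ndufa4, between 14.4 and 22.4. Their log2 differences between knockout and wild type lay between -0.13 and 0.14 in both strains, and none passed. The widely expressed partners were bright and, by the probe sets used, differed by -0.17 to 0.33. Cox4i1 differed by -0.05 in 129Sv and -0.07 in B6, Cox6b1 by -0.05 and 0.01, and Cox6a1 by -0.17 and 0.08. Cox7a2 differed by -0.05 and 0.10, Cox8a by 0.12 and 0.21, and Ndufa4 by 0.12 and 0.33. None of these passed either. A second probe set of Cox6b1, above 16 on all 12 arrays, differed by 0.08 in 129Sv and by 0.39 in B6.

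The other members of complex IV that stood out were Cox7c and Cox7a2l. Cox7c, a small widely expressed subunit, measured 94.9, 127 and 64.5 in 129Sv knockout testes, against 64.1, 93.7 and 66.6 in 129Sv wild-type testes, and 167, 185 and 314 in B6 knockout testes, against 139, 83.9 and 108 in B6 wild-type testes. The B6 groups did not overlap, yet the difference of 0.98 ± 0.29 narrowly missed the threshold (limma adjusted p = 0.0508), and in 129Sv it was 0.32 ± 0.29 with overlap (limma adjusted p = 0.606). Among knockouts Cox7c was 2.32-fold lower in 129Sv than in B6 (-1.22 ± 0.29, limma adjusted p = 0.00527). Its probe set was dim for a widely expressed subunit, with a mean log2 level of 6.804, against 8.987 for Cox8a and 12.437 for Cox4i1. It also varied more within groups than most members (SD 0.42), and the second probe set of Cox7c reached 16 on only 3 arrays. Whether this signal reflects the main transcript was not tested. Cox7a2l, which helps join complexes III and IV into a supercomplex, measured 2512, 3257 and 3680 in 129Sv knockout testes, against 3839, 3278 and 4440 in 129Sv wild-type testes, and 3730, 2868 and 2670 in B6 knockout testes, against 3635, 4993 and 3537 in B6 wild-type testes. Its groups overlapped in both strains, and the differences of -0.30 ± 0.17 and -0.39 ± 0.17 did not pass (limma adjusted p = 0.352 and 0.175), although all 3 of its probe sets ran downward in both.

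The promoters of 4 of the 8 tissue isoforms and of 74 other members could be matched in RefSeq (GRCm38.p6), as windows of 300 bases from 250 before the start of the gene to 50 after it. The isoform windows held 2 to 10 CpG dinucleotides (median 8.5), against 8 to 44 (median 20) in the other members and a median of 7 over the 27025 windows of all genes. The windows of Cox7b2, Cox6b2 and Cox7a1, isoforms that passed in a knockout or a strain comparison, are printed with that of Cox6b1, the widely expressed partner of Cox6b2, to show this difference, each 5′ to 3′ on the strand of the gene with CpG in capitals. Cox7b2 is at chr5:71548156-71548455 (minus strand), Cox6b2 at chr7:4753045-4753344 (minus), Cox7a1 at chr7:30183921-30184220 (plus) and Cox6b1 at chr7:30626065-30626364 (minus).
Cox7b2: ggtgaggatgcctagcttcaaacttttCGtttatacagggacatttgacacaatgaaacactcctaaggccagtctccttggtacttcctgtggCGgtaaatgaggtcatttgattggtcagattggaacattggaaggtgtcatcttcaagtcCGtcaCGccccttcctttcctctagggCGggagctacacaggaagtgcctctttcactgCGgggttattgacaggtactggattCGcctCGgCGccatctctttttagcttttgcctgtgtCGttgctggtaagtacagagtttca
Cox6b2: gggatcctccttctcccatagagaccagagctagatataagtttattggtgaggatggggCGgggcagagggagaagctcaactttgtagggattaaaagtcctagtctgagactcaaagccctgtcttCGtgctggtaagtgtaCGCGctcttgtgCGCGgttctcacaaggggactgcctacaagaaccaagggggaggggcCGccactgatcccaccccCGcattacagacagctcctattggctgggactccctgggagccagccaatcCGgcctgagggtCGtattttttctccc
Cox7a1: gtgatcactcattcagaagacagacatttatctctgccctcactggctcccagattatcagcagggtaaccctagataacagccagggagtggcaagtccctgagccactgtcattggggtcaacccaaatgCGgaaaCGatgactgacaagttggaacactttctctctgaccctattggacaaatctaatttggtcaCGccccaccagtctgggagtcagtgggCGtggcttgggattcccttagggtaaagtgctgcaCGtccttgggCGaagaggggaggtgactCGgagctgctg
Cox6b1: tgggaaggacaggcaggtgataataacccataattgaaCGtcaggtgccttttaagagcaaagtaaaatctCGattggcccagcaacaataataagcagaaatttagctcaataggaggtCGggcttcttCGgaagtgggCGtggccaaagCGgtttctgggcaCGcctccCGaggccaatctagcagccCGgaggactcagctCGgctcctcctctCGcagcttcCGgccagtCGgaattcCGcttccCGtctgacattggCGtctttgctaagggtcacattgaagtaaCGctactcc
They hold 10, 10, 7 and 17 CpG in that order. A search of both strands for ACANTGT, the core of the motif known for proteins of the Dmrt1 family, found none in these 4 windows, which says only that these letters are not there. Among all members 5 windows held it (6.41%), those of Cox5a, Ndufab1, Ndufb5, Ndufc2 and Uqcr10, against 7.59% of all windows.

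Some bright members share another motif. The full palindromic site known for the transcription factor NRF1 stood in the windows of Atp5g2, Atp5k, Cox6a1, Ndufaf4, Ndufaf5 and Uqcrc1, 6 of 78 (7.69%), against 0.977% of all windows, searched on both strands. The site itself holds CpG, and the windows of the members differ in composition from all windows. Their median GC was 59%, against 52.7%, and their median CpG count 20, against 7. The shares were not adjusted for this. The windows of Cox6a1 (chr5:115348909-115349208, minus strand) and Uqcrc1 (chr9:108936398-108936697, plus strand) show it in capitals, 162 bases before the start in Cox6a1 and after the start in Uqcrc1.
Cox6a1: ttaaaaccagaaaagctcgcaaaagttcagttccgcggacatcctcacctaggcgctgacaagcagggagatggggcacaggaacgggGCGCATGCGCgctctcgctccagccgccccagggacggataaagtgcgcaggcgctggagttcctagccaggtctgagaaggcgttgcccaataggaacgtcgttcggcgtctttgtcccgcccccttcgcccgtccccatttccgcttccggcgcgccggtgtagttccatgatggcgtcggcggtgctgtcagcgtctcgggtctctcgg
Uqcrc1: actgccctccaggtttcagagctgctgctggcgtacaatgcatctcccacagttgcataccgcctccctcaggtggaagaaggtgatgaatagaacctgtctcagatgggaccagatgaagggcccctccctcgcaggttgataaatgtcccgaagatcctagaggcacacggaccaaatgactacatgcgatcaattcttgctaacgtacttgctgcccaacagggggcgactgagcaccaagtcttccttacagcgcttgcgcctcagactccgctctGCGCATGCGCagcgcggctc
The 6 genes had log2 differences between knockout and wild type of -0.17 to 0.42 in 129Sv and of -0.20 to 0.21 in B6, and none passed. The letters CCGGAAGT, a site known for ETS factors such as GABP, stood in 5 windows (6.41%; Atp5h, Cox8a, Ndufs3, Uqcr11 and Uqcrh), against 4% of all windows. Their differences were -0.13 to 0.21 in 129Sv and 0.17 to 0.34 in B6, where Ndufs3 passed. Such matches are letters in a window and not sites shown to be bound.

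Within complex I the assembly factor Ndufaf6 changed most. It measured 162, 163 and 156 in 129Sv knockout testes, against 75.7, 87.0 and 64.4 in 129Sv wild-type testes, and 107, 113 and 137 in B6 knockout testes, against 76.6, 112 and 61.7 in B6 wild-type testes. The 129Sv groups were far apart and the B6 groups overlapped. Ndufaf6 was 2.13-fold higher in 129Sv knockout testes (1.09 ± 0.21, limma adjusted p = 0.00421), with 0.55 ± 0.21 in B6 (limma adjusted p = 0.126), and these effects did not differ past the threshold (0.54, limma adjusted p = 0.384). Averaged over the strains it rose by 0.82 ± 0.15 (limma adjusted p = 0.0016). With the number before the strain code in the sample titles as a covariate the 129Sv difference was 0.88 (limma adjusted p = 0.164). That number was 7 for all 3 129Sv knockout arrays and 11, 7 and 11 for the wild-type ones, so that it is nearly confounded with genotype and the adjusted difference rests on 1 wild-type array. What it stands for is not given. Cox7a1 shares this design, and its 129Sv difference with the covariate was -1.28 (limma adjusted p = 0.0265).

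Other assembly factors of complex I moved less. Ndufaf8, which takes part in the assembly of complex I, measured 1052, 859 and 829 in 129Sv knockout testes, against 602, 820 and 584 in 129Sv wild-type testes, and 726, 762 and 1116 in B6 knockout testes, against 575, 709 and 614 in B6 wild-type testes. Knockout lay above wild type without overlap in both strains, with differences of 0.46 and 0.43 that did not pass within a strain (limma adjusted p = 0.145 and 0.156), while the average of 0.45 ± 0.13 passed (limma adjusted p = 0.0297). Ndufaf4 showed 0.42 in 129Sv and 0.21 in B6, Ndufaf2 was the lowest of complex I in 129Sv at -0.21, and Ndufaf1 was the lowest in B6 at -0.43 ± 0.20 (limma adjusted p = 0.196). Ndufaf1 measured 563, 617 and 321 in B6 knockout testes, against 626, 659 and 656 in B6 wild-type testes, with array 3 lowest and the groups apart. None of these 3 passed.

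Among the subunits of complex I, Ndufa1 and Ndufs3 rose in B6. Ndufa1, an accessory subunit of the membrane arm, measured 2194, 1949 and 2929 in B6 knockout testes, against 1512, 1872 and 1537 in B6 wild-type testes, and was 1.42-fold higher (0.51 ± 0.14, limma adjusted p = 0.0331). In 129Sv it measured 1786, 1619 and 1624 in knockout testes, against 1701, 1708 and 1640 in wild-type testes, a difference of -0.01. Ndufs3, a core subunit of the arm that takes up electrons, measured 5874, 5935 and 7468 in B6 knockout testes, against 4804, 5257 and 5060 in B6 wild-type testes. It was 1.27-fold higher (0.34 ± 0.10), at the edge of the threshold (limma adjusted p = 0.04995), and in 129Sv it measured 5468, 5380 and 5528 in knockout testes, against 4720, 5397 and 4313 in wild-type testes (0.19, limma adjusted p = 0.308). Neither gene overlapped between the B6 groups, and in both array 3 was the highest of the knockouts. Without that array the differences were 0.34 for Ndufa1 and 0.23 for Ndufs3, and neither passed. The Ndufa1 call was also lost without B6 wild-type array 1 (0.45) or 3 (0.46), and the Ndufs3 call without any 1 of 10 of the 12 arrays (0.23 to 0.40).

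The largest B6 difference of complex I belonged to Ndufa6, an accessory subunit, at 0.59 ± 0.20, and did not pass (limma adjusted p = 0.0848). It measured 555, 603 and 1018 in B6 knockout testes, against 473, 505 and 423 in B6 wild-type testes, again with array 3 highest. Over both strains Ndufv2, a core subunit, rose by 0.24 (limma adjusted p = 0.0447) and Ndufb8, an accessory one, by 0.28 (limma adjusted p = 0.0411). In all, 33 members of complex I were higher and 8 lower in B6.

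Complex II, which is also the succinate dehydrogenase of the citric acid cycle, held no call within a strain. Its 4 subunits Sdha, Sdhb, Sdhc and Sdhd differed by -0.05, 0.12, 0.11 and 0.14 in 129Sv and by 0.12, 0.12, 0.26 and -0.09 in B6. The assembly factor Sdhaf4 was the highest of complex II in both strains. It measured 2528, 2010 and 2077 in 129Sv knockout testes, against 1631, 2266 and 1637 in 129Sv wild-type testes, and 2405, 2057 and 1939 in B6 knockout testes, against 1383, 1784 and 1708 in B6 wild-type testes. The B6 groups did not overlap, and its average of 0.33 over the strains passed (limma adjusted p = 0.0486). Sdhaf1 stood at 0.23 and 0.37 and Sdhaf2 at -0.01 and 0.14 in 129Sv and B6, and neither passed.

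Complex III held no call between knockout and wild type. In B6, 7 of its 8 members were higher, the highest being Uqcrq at 0.53 (limma adjusted p = 0.146), a small subunit next to cytochrome b that measured 586, 793 and 1240 in B6 knockout testes, against 486, 705 and 554 in B6 wild-type testes. Uqcr10, another small subunit, measured 1471, 2254 and 2480 in B6 knockout testes, against 1351, 1691 and 1468 in B6 wild-type testes. Both genes overlapped between the groups. The brightest, Uqcrb, differed by -0.08 in 129Sv and by -0.09 in B6, and Uqcr11 by 0.21 and 0.25.

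In complex V, Atp5e, the epsilon subunit of the F1 part, rose in B6. It measured 4616, 5403 and 6197 in B6 knockout testes, against 3344, 4101 and 4021 in B6 wild-type testes, and 4612, 3455 and 4048 in 129Sv knockout testes, against 3398, 4297 and 3406 in 129Sv wild-type testes. The B6 groups did not overlap, and Atp5e was 1.41-fold higher in B6 knockout testes (0.50 ± 0.13, limma adjusted p = 0.0364), with 0.13 in 129Sv and overlap there. The call was lost without any 1 of 5 B6 arrays, knockout 2 (0.49) or 3 (0.39) and wild type 1 (0.40), 2 (0.55) or 3 (0.54). The catalytic beta subunit Atp5b differed by 0.29 in B6 (limma adjusted p = 0.102), and the 3 genes of the c ring, Atp5g1, Atp5g2 and Atp5g3, which encode the same mature protein, by 0.01, 0.08 and -0.15 in 129Sv and by 0.23, 0.07 and 0.08 in B6. By the probe sets used, Atp5d was the lowest of complex V in 129Sv (-0.17) and Atp5o the lowest in B6 (-0.08). In B6, 15 of 17 members were higher.

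Over both strains together 11 members passed by limma, 8 upward and 3 downward, where 13.5% of all genes passed, 5.62% upward and 7.88% downward. The 8 were Ndufaf6, Ndufaf8, Ndufs3, Ndufv2, Ndufb8, Sdhaf4, Cox7c (0.65 ± 0.20, limma adjusted p = 0.0475) and Atp5e (0.31, limma adjusted p = 0.0425). The 3 were the isoforms Cox7a1 (-0.64 ± 0.14, limma adjusted p = 0.00607), Cox7b2 (-0.80 ± 0.23, limma adjusted p = 0.0293) and Cox8c. Ndufaf6, Cox7a1 and Cox8c passed whichever array was left out. Each of the other 8 was lost without at least 1 array, and the number of calls was 3 without 129Sv wild-type array 1 or 3 and 13 without B6 knockout array 1. In its title 129Sv wild-type array 2 has the number 7 before the strain code, as all 129Sv knockout arrays do. It lay within the range of those arrays for Ndufs3, Ndufv2, Ndufb8, Sdhaf4, Cox7c, Atp5e and Cox7b2. For Ndufaf6, Ndufaf8, Cox7a1 and Cox8c it lay outside. The part of this number in the averages was not tested.

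Between the wild types the strains differed little in the respiratory chain. Of 92 members 3 passed by limma, Cox7a1 and Cox8c higher and Cox6b2 lower in 129Sv, where 16.1% of all genes passed (10.9% higher, 5.19% lower). The median difference was 0.00 over the members and 0.06 over all genes, with 47 higher and 45 lower in 129Sv, and none of the 72 ordinary subunits passed. Groups without overlap numbered 12 higher and 2 lower in 129Sv, against 26.6% and 14.1% of all genes. Cox8c was at least 1.86-fold higher in 129Sv (0.92 ± 0.26, limma adjusted p = 0.0264), since its B6 mean lay below 16. That call was lost without 129Sv wild-type array 2 (0.76) or 3 (0.98) and without B6 wild-type array 1 (0.75) or 2 (0.95). Sdhb (0.32, limma adjusted p = 0.0793) and Uqcrc2 (0.27, limma adjusted p = 0.0568) came near, and the extremes of complexes I and V, Ndufaf5 (0.43), Ndufaf7 (-0.46), Atp5g1 (0.19) and Atp5md (-0.21), did not pass.

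Between the knockouts 18 members passed by limma, 6 higher and 12 lower in 129Sv. Of all genes 34.1% passed, 20.3% higher and 13.8% lower, so the members passed at a smaller share upward and at about the same share downward. The median was -0.10 over the members and 0.03 over all genes, and 19 members lay entirely lower and 7 entirely higher, against 18.8% and 25% of all genes. Complex V led the lower ones, with 15 of 17 members below 0, a median of -0.19 and 5 calls: Atp5e (-0.42), Atp5h (-0.30), Atp5j (-0.30), Atp5j2 (-0.44) and Atp5md (-0.40), parts of F1, of the stalk that holds it and of Fo. Each of these 5 calls was lost without 129Sv knockout array 2, with differences of -0.31, -0.20, -0.19, -0.26 and -0.33 in that order. On that array the mean log2 level of complex V, relative to all 12 arrays, was -0.222. It was 0.058 and 0.01 on 129Sv knockout arrays 1 and 3. In complex I Ndufa1 (-0.47), Ndufa5 (-0.35) and Ndufb7 (-0.43) were lower and Ndufb6 (0.37) and the assembly factor Ndufaf5 (0.80 ± 0.23, limma adjusted p = 0.0158) higher. Ndufaf5 measured 515, 469 and 631 in 129Sv knockout testes, against 391, 356 and 207 in B6 knockout testes. Uqcr10 (-0.49) and the flavoprotein Sdha (-0.24) were also lower, and Sdhb (0.32) and the complex IV subunit Cox5a (0.26) higher. The other bright probe sets of Cox5a stood at 0.30 and at -0.14. A second bright probe set of Sdha overlapped, with log2 levels of 11.043 to 11.298 in 129Sv knockout and 11.077 to 11.177 in B6 knockout testes. That of Ndufb6 overlapped too, at 11.127 to 11.232 in 129Sv knockout and 11.051 to 11.154 in B6 knockout testes. For Atp5j2 a second bright probe set stood at -0.10. Further probe sets of Atp5h, Ndufa5, Ndufb7 and Uqcr10 above the filter were lower on average in 129Sv, like the used ones. The remaining 4 were Cox7b2, Cox8c, Cox6b2 and Cox7c. Cox8c was higher by at least 1.04-fold (limma adjusted p = 0.00568), since its B6 knockout values lay below 16, and with values below a log2 of 4 raised to 4 the difference was 0.17 and did not pass (limma adjusted p = 0.473). These 4 passed whichever array was left out, and each of the other 14 was lost without at least 1 array. The number of calls was 9 without 129Sv knockout array 2 or B6 knockout array 2, 10 without B6 knockout array 3 and 11 without 129Sv knockout array 3.

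Genes with several probe sets gave a further view of the same RNA. Of 48 members with at least 2 probe sets above the intensity filter, all probe sets ran in one direction for 22 in the 129Sv knockout comparison and for 36 in the B6 one. The median B6 difference was 0.15 for the probe sets used and 0.18 for the mean of the others, and in 129Sv it was 0.02 and 0.03. Cox5a disagreed with itself in B6, at -0.14 and -0.08 for 2 of its probe sets and at 0.26 for the third. The used probe set and another bright one also stood apart in B6 for Cox6b1 (0.01 and 0.39) and Cox6c (-0.11 and 0.35). The same held for Atp5o (-0.08 and 0.23) and Atp5pb (-0.01 and 0.30). The 3 probe sets of Uqcr10 lay between 0.43 and 0.63. Cox7b2, Cox6b2, Cox7a1, Ndufaf6 and Ndufa1 each had 1 probe set, so no second one stands beside these calls.

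Some genes of the surrounding pathways passed, where 8.31% of all genes passed in 129Sv and 7.9% in B6. Of 21 tested genes of the citric acid cycle 1 passed in B6, fumarase Fh1, which rose by 0.38 ± 0.11 (limma adjusted p = 0.0409), and none in 129Sv, with median differences of 0.11 and -0.02. Of 17 genes of glycolysis, Ldhb, which interconverts lactate and pyruvate, rose by 0.52 ± 0.12 (limma adjusted p = 0.0151) and the hexokinase Hk2 fell by 0.65 ± 0.16 (limma adjusted p = 0.0199) in B6, while the aldolase Aldoc fell by 0.80 ± 0.20 in 129Sv (limma adjusted p = 0.0228). Among 16 tested electron carriers and transporters, Slc25a31 and Ckmt1, the mitochondrial creatine kinase, passed downward in B6, and none passed in 129Sv. Ckmt1 was at least 1.1-fold lower in B6 (limma adjusted p = 0.0416), since its knockout values of 8.37, 9.71 and 6.77 lay below 16, against 12.0, 19.5 and 23.0 in wild-type testes. Among 34 further assembly factors none passed in either strain by limma. Higher in knockout testes were 28 (82.4%) in 129Sv and 22 (64.7%) in B6, against 49.0% and 54.0% of all genes. Their median differences were 0.10 and 0.11.

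Antioxidant and regulatory genes held a few changes. Glrx2, a mitochondrial glutaredoxin, measured 1233, 1224 and 1310 in 129Sv knockout testes, against 686, 952 and 673 in 129Sv wild-type testes, and 1320, 1305 and 1490 in B6 knockout testes, against 814, 858 and 777 in B6 wild-type testes. It was higher without overlap in both strains, by 0.72 ± 0.13 in 129Sv (limma adjusted p = 0.00284) and by 0.75 ± 0.13 in B6 (limma adjusted p = 0.00285). Gpx4, a peroxidase that reduces lipid peroxides, rose in 129Sv (0.63 ± 0.13, limma adjusted p = 0.00525), and stood at 0.31 in B6, without overlap (limma adjusted p = 0.147). Of 8 antioxidant genes 2 thus passed in 129Sv and 1 in B6, where 8.31% and 7.9% of all genes passed. Higher were 7 and 6, against 49.0% and 54.0% of all genes, with medians of 0.22 and 0.24. Of 21 regulators, Nrf1, a transcription factor of respiratory chain genes, rose in 129Sv, with 174, 136 and 113 in knockout testes, against 67.0, 69.6 and 57.0 in wild-type testes (1.11 ± 0.19, limma adjusted p = 0.00164). Its other 3 probe sets, all dimmer, differed by -0.12 to 0.21 there. In B6 the used probe set measured 118, 153 and 116 in knockout testes, against 94.0, 94.0 and 87.2 in wild-type testes (0.48, limma adjusted p = 0.137). Mterf1a, which acts on mitochondrial transcription, fell by 0.57 in B6 (limma adjusted p = 0.0315), and none of 11 genes of mitochondrial fission, fusion and clearance passed in either strain by limma.

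Between the wild types some of these genes differed by strain. Of the 34 further assembly factors 5 passed higher in 129Sv and none lower, where 10.9% and 5.19% of all genes did: Timmdc1 (1.23, limma adjusted p = 0.000237) of complex I, Cox18 (1.07, limma adjusted p = 0.000989) of complex IV, Bcs1l (0.49) and Ttc19 (0.49) of complex III, and Atpaf1 (0.40) of complex V. The glycolytic enzyme Pfkp (1.02), Slc25a31 (0.53), Polrmt (0.48), which transcribes mitochondrial DNA, and Bnip3 (0.36), of mitochondrial clearance, were also higher in 129Sv. Prdx3, a mitochondrial peroxiredoxin (-0.70, limma adjusted p = 0.000185), and the channel Vdac2 (-0.41) were lower.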

How the data were processed

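Total RNA of 12 testis samples was labelled with biotin and hybridised to Affymetrix arrays of 45101 probe sets. The deposited intensity values were made by the authors with GCRMA, as the submitters' processing notes state, with no version or setting recorded there. The values had no entry under 1.4 and were read as linear intensities, of which log2 was taken here, although the planned design had assumed log2 values. The test stayed the same.

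The platform annotation named the probe sets, and symbols were updated by Entrez identifier to RefSeq (GRCm38.p6): 34958 had 1 gene, 932 several and 9211 none, and only the first were used, less 13 control probe sets. A gene was represented by its probe set of highest mean, and 12726 genes that reached a log2 value of 4 on 3 or more arrays were tested. The 94 members had 185 probe sets.

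The 4 group means were estimated over all arrays by lmFit of limma 3.58.1 (R 4.3.3), followed by eBayes with a variance trend, on 8 residual and 6.71 prior degrees of freedom. P-values were adjusted by Benjamini-Hochberg over all tested genes at 0.05. The contrasts were knockout minus wild type in each strain, their difference and average, and 129Sv minus B6 in each genotype. Folds compare means of log2 values, and one written as "at least" sets the group below 16 to 16. The calculation was checked on simulated data. With no counts on arrays, their number, 3 per group, limits the precision.

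Named were members past the threshold in any contrast, isoform families, the extremes of each complex, the brightest and dimmest members, and pathway genes past the threshold. The members and lists were chosen with earlier results of these data known. Alternatives were other filters, probe set rules, floors, normalisations, variance models, samples in the fit, covariates and each array left out.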

Additional observations from a re-analysis of the deposited data

How the results depend on the processing

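Of the 39 calls of single members over the 6 comparisons, none changed direction under any alternative, and 9 passed under every one that tested them (Cox8c is not tested with the filter at a log2 of 6): Cox7a1 in the 129Sv knockout comparison (-1.28 to -0.92, limma adjusted p 0.0011 to 0.0265) and on average, Cox7b2 in the B6 knockout comparison (-2.16 to -1.49, limma adjusted p 0.000195 to 0.0365) and between knockouts, Cox6b2 between strains in both genotypes, Cox7c between knockouts, and Ndufaf6 and Cox8c on average. The averages were fitted neither with the number before the strain code as a covariate nor with only the groups compared. With that covariate, which was fitted for the 129Sv knockout comparison only, the Ndufaf6 call there was lost (0.88). Ndufa1 in B6 passed in 15 of 23 alternatives, Atp5e in 12 of 23 and Ndufs3 in 3 of 23.

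The number of members called in the 129Sv knockout comparison (2) was 4 with only the groups compared in the fit, 1 with the title number before the strain code as a covariate, and 2 to 4 with arrays left out in turn (4 without 129Sv knockout array 3 or B6 knockout array 3). The median member difference of 0.04 was -0.02 to 0.09 with arrays left out, -0.02 without the arrays of the 2 highest Actb ratios, an alternative chosen after seeing the data, and -0.09 when the number before the strain code was a covariate. The cause was not tested. For B6 the count (5) was 3 with the filter at a log2 of 6, 2 with the mean of a gene's probe sets, 3 with values floored at a log2 of 4, 2 without the variance trend, 1 with only the groups compared, 2 with the Actb ratio as a covariate, 2 without the arrays of the 2 highest Actb ratios, and 1 to 10 with arrays left out (10 without B6 knockout array 1, 1 without B6 wild-type array 3). The B6 median stayed between 0.08 and 0.22 in all of them, the lowest with the Actb ratio as a covariate. For the difference of the knockout effects the count (0) was 1, Cox7b2, with the first number of the titles, which some arrays share, as a random block, with the Actb covariate and without those 2 arrays, and 0 to 1 with arrays left out. Between wild types the count (3) was 6 with only the groups compared, 5 with the Actb covariate, 5 without the 2 arrays, and 1 to 5 with arrays left out (1 without 129Sv wild-type array 2 or B6 wild-type array 1). Between knockouts the count (18) was 9 without the trend, 9 with only the groups compared, 12 without the 2 arrays, and 9 to 20 with arrays left out. For the average effect the count (11) was 7 with the filter at 6, 5 with the mean of probe sets, 5 without the trend, 4 with the Actb covariate, 4 without the 2 arrays, and 3 to 13 with arrays left out.

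Samples with the same replicate number did not deviate together. Their correlations were -0.14, -0.466 and -0.086 in 129Sv and 0.008, 0.003 and -0.039 in B6. Correlations of deviations from the means of so few arrays cannot exclude pairing. In B6, knockout and wild-type array 1 share the first number of their titles, and so do knockout and wild-type array 2. What that number stands for is not given, and the main fit treated all arrays as unpaired. With the replicate number as a block the counts were 2 in B6, 6 on average and 1 for the difference of effects (Cox7b2).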

Other observations

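Probe sets assigned to several genes were left out of the members and hold close relatives of them. The brighter of those of Ndufb4, Ndufb4b and Ndufb4c, accessory subunits of complex I, measured 3658 ± 501 in 129Sv knockout, 3471 ± 179 in 129Sv wild-type, 4232 ± 612 in B6 knockout and 3567 ± 307 in B6 wild-type testes (SD, n = 3 each), while the probe set of Ndufb4 alone stayed under 16. One shared by Ndufa11 and Ndufa11b measured 1685 ± 267 in 129Sv knockout, 1751 ± 234 in 129Sv wild-type, 1217 ± 346 in B6 knockout and 1056 ± 191 in B6 wild-type testes. One shared by Ndufs6 and Ndufs6b measured 2137 ± 43.1 in 129Sv knockout, 2178 ± 185 in 129Sv wild-type, 2670 ± 309 in B6 knockout and 2189 ± 451 in B6 wild-type testes. These values were not tested.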
